A study of Sus scrofa with 96 samples.

Results

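Testes of boars with a high and a medium genetic merit of boar taint (BT) were compared within a set of libraries where both groups shared a kit and a batch. It held the 20 testis libraries of batch 2 in the submitters' file labels, 14 of high BT and 6 of medium BT, among 96 libraries of the series. The series holds liver and testis of 48 non-castrated Danish Landrace boars, with 16 boars in each of the high, medium and low merit groups. Merit was assigned from the sire, as the sum of his breeding values for skatole in fat and for the human nose score, so the groups differ in expected merit and carry no treatment, transgene or deletion. Boars of a sire are related, the sires are not named in the labels, and p-values therefore measure the spread between boars as if these were unrelated. All 20 testis pieces were whole-tissue punch biopsies from carcasses that had been cooled, all libraries were made with the stranded mRNA kit, and the age of the boars is not given in the sources used here. The same 20 boars also gave liver libraries (stranded mRNA, batch 1), and 5 other boars gave total RNA testis libraries of batch 3 (2 of high and 3 of medium BT), where the groups again share a kit and a batch, and both sets are read here only beside the 20 testes.

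Boar taint comes from skatole, which gut bacteria make from tryptophan and the liver clears, and from androstenone, a steroid pheromone of the testis. Androstenone is made in Leydig cells, the steroid-producing cells between the seminiferous tubules, where luteinizing hormone acts on its receptor, cholesterol is delivered to mitochondria, CYP11A1 converts it to pregnenolone and CYP17A1 with its partner CYB5A directs pregnenolone to the 16-androstene steroids. The pig testis is unusually rich in Leydig cells, but most of its RNA belongs to germ cells in the tubules, from spermatogonia through spermatocytes to spermatids.

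The reads assigned to genes ran from 8014137 to 18045966 in the high BT and from 7200799 to 12936206 in the medium BT testes. None of 6 library measures (reads on genes, share of reads assigned, share of the 10 largest genes, genes with a count and the first 2 principal components) differed between the groups in exact permutation tests (two-sided p from 0.0949 to 0.894, adjusted p from 0.570). Spermatid markers marked the tissue as testis: the elongating spermatid list summed to 24535 to 57846 CPM (read counts scaled to the library total) in the testes and to at most 34.6 CPM in the livers of these boars. A second sequencing run made 4 of the 14 high BT libraries and none of the medium BT libraries.

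Only 1 of 15164 genes tested was differentially expressed (DE) between the testes of high and medium BT, which is 0.00659% of the genes (limma on voom values with TMM factors and sample quality weights, Benjamini-Hochberg adjusted p under 0.05). No gene was DE with a higher level in high BT. At an unadjusted p under 0.05 there were 633 genes, or 4.17% of those tested, 309 of them higher and 324 lower in high BT. In 0 genes (0%) did the 14 high BT libraries lie wholly above or below the 6 medium BT libraries. The log2 fold changes of high minus medium BT had a median of 0.00079, ran from -0.32 at the 5th to 0.38 at the 95th percentile, and had a median standard error (SE) of 0.157. The edgeR quasi-likelihood test called 0 genes (566 at an unadjusted p under 0.05, lowest adjusted p 0.189), and DESeq2 called 4 (0.0264%). In whole testis, fewer cells of a type and less RNA per cell cannot be told apart, for this and for every value that follows.

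The DE gene was ENSSSCG00000011035, which has no symbol in the gene table used, so its role is not given. Its level was 2.28 to 8.58 CPM in the high BT testes (median 3.47) and 7.58 to 11.8 CPM in the medium BT testes (median 8.78). Of the 14 high BT libraries, 12 lay below the lowest medium BT library and the other 2 lay within the medium range, so the groups overlapped narrowly. The log2 fold change was -1.24 ± 0.20 (SE, n = 14 and 6, 95% interval -1.65 to -0.82), a level 2.35-fold higher in medium BT, with an adjusted p of 0.0348 in limma. These levels rest on 26 to 132 counts per library.

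The size of this difference held better than its call. In the same 20 libraries the log2 fold change was -1.17 in edgeR (adjusted p 0.189) and -1.17 in DESeq2 (adjusted p 0.0126). When each library was left out in turn, it stayed between -1.17 and -1.32, but the adjusted p ran from 0.00264 to 0.281 in limma, and the gene was called in 5 of the 20 fits. The call was lost without any 1 of high BT replicates 1, 3, 4, 5, 6, 7, 8, 9, 11, 13 and 14 and of medium BT replicates 8, 9, 10 and 16. Without the 4 second-run libraries the log2 fold change was -1.06 and the adjusted p in limma was 0.348. In the batch 3 testes the gene was at 2.23 and 3.48 CPM in the 2 high BT boars and at 2.67, 6.47 and 7.01 CPM in the 3 medium BT boars, a log2 difference of -0.78 that was not tested. In the livers it was near the limit of detection (0.102 to 1.19 CPM) with a log2 fold change of 0.23 ± 0.43 (SE, n = 14 and 6).

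Among the genes higher in high BT, the 10 of lowest p had log2 fold changes of 0.40 to 2.49 and adjusted p of 0.495 to 0.762 in limma, so none passed the test. CEP131, a centrosome and ciliary satellite protein, was at 7.36 to 15.9 CPM in high BT (median 11.3) and at 5.16 to 8.56 CPM in medium BT (median 6.41). Its libraries separated almost wholly, with 13 of 14 high BT testes above every medium BT testis. The log2 fold change was 0.70 ± 0.16 (SE), with an adjusted p of 0.495 in limma and of 0.0159 in DESeq2, and in batch 3 its difference had the opposite sign (-0.23). TSGA10IP, named for its interaction with the sperm tail protein TSGA10, was at 63.9 to 99.1 CPM in high BT and at 49.9 to 70.6 CPM in medium BT. The narrow spread of TSGA10IP let a small log2 fold change of 0.40 ± 0.095 (SE) rank among the first, with 10 of 14 high BT testes above the medium range. ALCAM, a cell adhesion molecule of the immunoglobulin family, was at 2.66 to 8.70 CPM in high BT and at 2.04 to 3.79 CPM in medium BT. For ALCAM 11 of 14 high BT testes lay above the medium range, the log2 fold change was 0.82 ± 0.22 (SE, adjusted p 0.691 in limma), and in batch 3 the 2 high BT testes (12.9 and 14.9 CPM) again lay above the 3 medium BT testes (7.72 to 11.7 CPM).

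The other symbols among these 10 genes were at low levels. ZFP57, a zinc finger protein that keeps the methylation of imprinted regions, was at 2.45 to 6.52 CPM in high BT and at 0.463 to 3.60 CPM in medium BT (log2 fold change 1.51, adjusted p 0.496 in limma, and 0.96 in edgeR). LNP1 was at 0.172 to 2.17 CPM in high BT and at 0 to 1.42 CPM in medium BT, with 2 medium BT testes at 0 counts and a log2 fold change of 2.49 in limma and 1.32 in edgeR. LRRTM4, a leucine-rich synaptic adhesion protein, was at 0.263 to 1.43 CPM in high BT and at 0 to 0.682 CPM in medium BT. For ZFP57 and LNP1 7 of 14 high BT testes lay above the medium range, and for LRRTM4 8 of 14. DESeq2 alone called TRPC7, a cation channel subunit, which was at 0.300 to 7.70 CPM in high BT and at 0.281 to 1.14 CPM in medium BT. Its log2 fold change was 2.42 in limma (adjusted p 0.983) and 2.64 in DESeq2 (adjusted p 0.000222), and in batch 3 the difference was -1.43.

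Among the genes lower in high BT, the 10 of lowest p had log2 fold changes of -0.70 to -4.14, and after the DE gene their adjusted p ran from 0.256 to 0.498 in limma. AMOTL1, a tight junction protein that binds the growth regulator YAP, was at 22.3 to 79.1 CPM in high BT (median 42.0) and at 49.8 to 127 CPM in medium BT (median 78.0). For AMOTL1 7 of 14 high BT testes lay below the lowest medium BT testis, and its log2 fold change was -1.10 ± 0.27 (SE, adjusted p 0.495 in limma). In batch 3 AMOTL1 was at 11.9 and 20.6 CPM in high BT and at 16.5, 38.6 and 46.4 CPM in medium BT, a log2 difference of -0.97. ADAMTS5, a protease that cleaves aggrecan in the extracellular matrix, was at 0 to 1.47 CPM in high BT and at 1.06 to 2.00 CPM in medium BT, with 11 of 14 high BT testes below the medium range. KCNN3, a calcium-activated potassium channel, was at 0 to 1.62 CPM in high BT and at 0.227 to 2.88 CPM in medium BT, with 3 high BT testes at 0 counts. Neither ADAMTS5 nor KCNN3 exceeded 27 counts in any library, and DESeq2 called neither. DESeq2 did call ADD2, an adducin of the membrane skeleton, with a log2 fold change of -2.12 (adjusted p 0.0133), where limma gave -1.50 (adjusted p 1.00).

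Of these lower genes, 7 have no symbol. ENSSSCG00000022908 came closest to the threshold, at 0.275 to 3.83 CPM in high BT and at 2.39 to 4.21 CPM in medium BT, and its log2 fold change of -1.60 ± 0.31 (SE, adjusted p 0.256 in limma) stood beside a batch 3 difference of -1.47. ENSSSCG00000030371 and ENSSSCG00000002486 were low in testis and abundant in liver. ENSSSCG00000030371 was at 3.96 to 13.5 CPM in high BT and at 10.8 to 23.6 CPM in medium BT testes, against 1776 to 22343 CPM in the livers. ENSSSCG00000002486 was at 0 to 1.89 CPM in high BT and at 0.114 to 5.89 CPM in medium BT testes, against 211 to 12610 CPM in the livers. In the livers themselves both genes also had lower levels in high BT. The liver log2 fold changes were -1.04 ± 0.42 for ENSSSCG00000030371 and -1.61 ± 0.67 for ENSSSCG00000002486 (SE, adjusted p 0.501 and 0.504 in limma). Of the liver marker list 5 of 6 tested members had lower levels in high BT, with 0 DE and 0 at an unadjusted p under 0.05. The list's median log2 fold change was -0.89 (-0.43 without medium BT replicate 16 and -1.35 without medium BT replicate 11). Part of the list was near the floor in testis. TTR had a mean of 5.2 counts, with 4 high BT and 1 medium BT testes at 0, and APOC3 and FGG also had testes at 0 counts. The defining marker ALB (albumin) was at 1.30 to 9.25 CPM in high BT (median 4.38) and at 1.82 to 37.9 CPM in medium BT testes (median 5.54). The part of liver transcripts in these differences was not tested.

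Over both directions, the signs of the 20 genes were set beside those of boars and tissue outside the comparison. In batch 3, where other boars and another kit were used, 6 of 8 higher genes and 9 of 10 lower genes that could be measured had the same sign, against 59.7% of all genes with a higher and 50.5% of all genes with a lower level in high BT. In the livers of the same boars the same sign was found for 5 of 6 higher and 3 of 5 lower genes, against 55.4% and 53.9% of all genes.

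**Figure D1:**
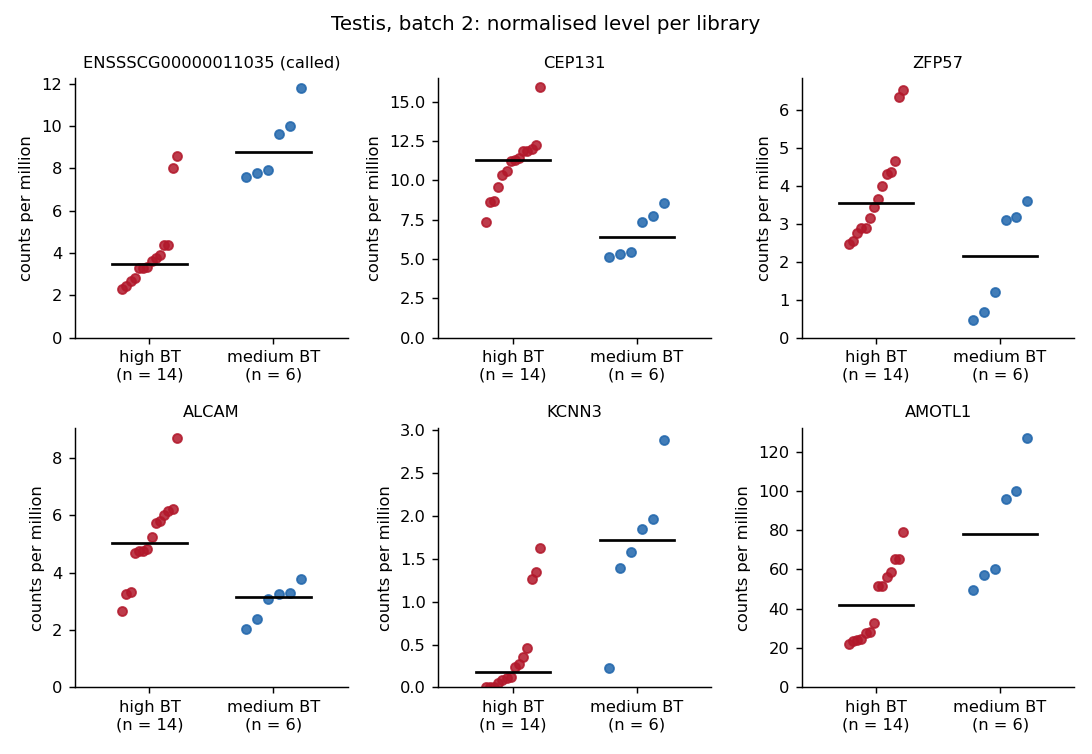
Levels (CPM, linear axes from 0) of 6 genes in each of the 14 high BT and 6 medium BT testis libraries of batch 2, where points are libraries sorted by level and bars are group medians. For ENSSSCG00000011035, 12 of the 14 high BT points lie below the lowest medium BT point, for CEP131 13 high BT points lie above all medium BT points, and ZFP57, ALCAM, KCNN3 and AMOTL1 overlap more widely.

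**Figure D2:**
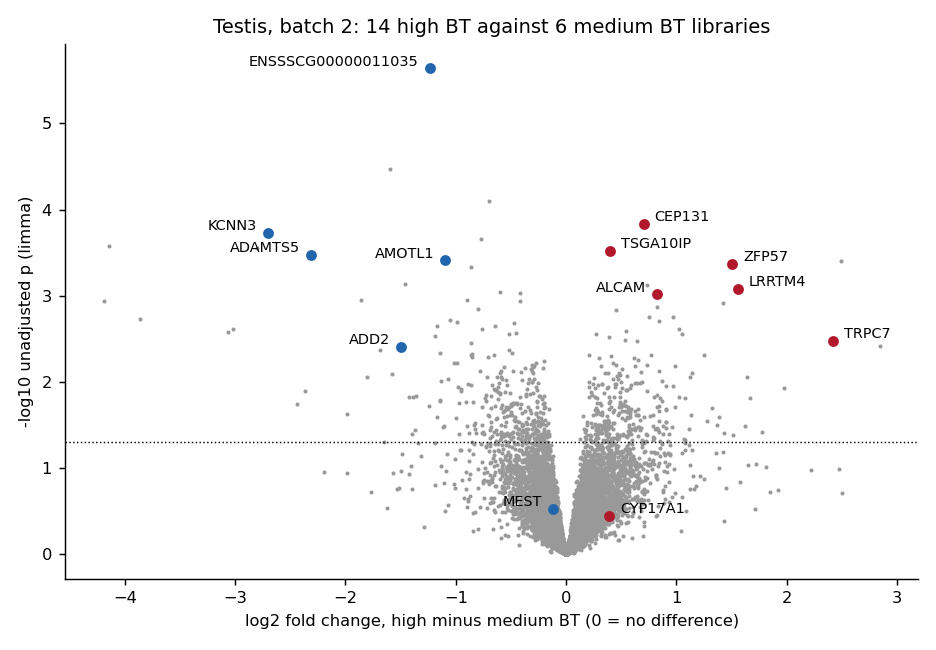
Log2 fold change of high minus medium BT (x axis) against the negative log10 of the unadjusted limma p (y axis) for the 15164 genes tested in the 20 testes. Labelled points are named genes and the dotted line marks p = 0.05, and the 1 gene with an adjusted p under 0.05 stands at a log2 fold change of -1.24, and higher and lower genes are spread about evenly (309 and 324 at an unadjusted p under 0.05).

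The genes that supply cholesterol, the substrate of all testicular steroids, had mostly higher levels in high BT, but none passed the test and the tilt depended on how libraries were weighted. Of 31 genes listed, 26 were tested and 0 were DE, 21 had a higher and 5 a lower level in high BT, and their median log2 fold change was 0.22, against 50.3% higher and a median of 0.00079 over all genes tested. At an unadjusted p under 0.05 there were 2 of 26, beside 4.17% of all genes. The same shares of all genes stand beside every list that follows. The list's median was 0.078 without the quality weights (19 higher) and 0.029 in edgeR (15 higher), 0.018 without medium BT replicate 8 and 0.026 without medium BT replicate 16, and 0.41 without medium BT replicate 9. SOAT1, which esterifies cholesterol for storage in lipid droplets, was at 30.8 to 170 CPM in high BT (median 52.9) and at 29.2 to 54.8 CPM in medium BT (median 34.5). The high BT testes reached far above the medium range for SOAT1 but also covered it, and its log2 fold change was 0.80 ± 0.30 (SE, n = 14 and 6, unadjusted p 0.0150, adjusted p 1.00 in limma). In batch 3 SOAT1 was at 133 and 244 CPM in the 2 high BT testes and at 46.9, 52.5 and 86.1 CPM in the 3 medium BT testes. TM7SF2, a sterol reductase of the late cholesterol pathway, was at 3.45 to 42.5 CPM in high BT (median 18.6) and at 3.93 to 24.0 CPM in medium BT (median 14.1), a log2 fold change of 0.80 ± 0.38 (SE). In batch 3 TM7SF2 also lay higher in both high BT testes (41.9 and 45.5 CPM) than in the 3 medium BT testes (9.08 to 26.2 CPM). The log2 fold change of SOAT1 was 0.76 in edgeR, while that of TM7SF2 was 0.39.

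In androstenone and steroid synthesis itself, 18 of 33 listed genes were tested and none was DE (0 of 18 also at an unadjusted p under 0.05), with 13 higher and 5 lower in high BT and a median log2 fold change of 0.12. In edgeR 8 of the 18 were higher, with a median of -0.0053, and 8 were higher without medium BT replicate 8 or without medium BT replicate 16. HSD17B7, which acts in both cholesterol and oestradiol synthesis, was at 8.36 to 44.5 CPM in high BT and at 8.10 to 29.3 CPM in medium BT (log2 fold change 0.60 ± 0.32, SE, in limma and 0.25 in edgeR). HSD17B11, a lipid-droplet steroid dehydrogenase, was at 3.17 to 17.3 CPM in high BT and at 6.84 to 16.0 CPM in medium BT (log2 fold change -0.40 ± 0.24, SE). CYP17A1 was at 599.9 to 7281 CPM in high BT (median 2289) and at 605 to 8711 CPM in medium BT (median 2015). The ranges of CYP17A1 coincide almost fully, and its log2 fold change was 0.39 ± 0.41 (SE, 95% interval -0.47 to 1.25) in limma and had the opposite sign in edgeR (-0.096) and DESeq2 (-0.091). Leaving out medium BT replicate 9, which had the highest level of its group, gave 0.81, and leaving out medium BT replicate 16 gave -0.19. Of the steroid conjugation genes, which mostly add or remove sulphate, 3 of 12 listed were tested, and none passed an unadjusted p under 0.05. An example is SLC35B2, a carrier of the sulphate donor into the Golgi, at 0.072 ± 0.13 (log2 fold change ± SE).

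Luteinizing hormone acts on Leydig cells through its receptor LHCGR and cyclic AMP. Of 22 gonadotrophin signalling genes tested, 9 had higher and 13 lower levels in high BT, with 0 DE and a median log2 fold change of -0.03. At an unadjusted p under 0.05 there were 2 of the 22, beside 4.17% of all genes. MAP3K2, a kinase upstream of MAP kinases, was at 13.1 to 32.5 CPM in high BT and at 10.3 to 17.6 CPM in medium BT (log2 fold change 0.48 ± 0.19, SE). ADCY2, an adenylyl cyclase that makes cyclic AMP, was at 11.0 to 38.7 CPM in high BT and at 22.2 to 42.7 CPM in medium BT (log2 fold change -0.50 ± 0.23, SE). Both were among the genes at an unadjusted p under 0.05, with adjusted p of 1.00 in limma.

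Among sex hormone receptors, carriers and related regulators, 3 of 9 tested genes were higher and 6 lower, with 0 DE and a median log2 fold change of -0.04. NR5A2, a nuclear receptor that can drive steroidogenic promoters, was at 10.6 to 24.8 CPM in high BT and at 13.5 to 30.4 CPM in medium BT. Its log2 fold change of -0.48 ± 0.17 (SE) had the lowest unadjusted p of that list, 0.00741, and did not pass after adjustment (adjusted p 1.00 in limma). NR0B1, a repressor of steroidogenic nuclear receptors, had a log2 fold change of -0.37 ± 0.20 (SE) in limma and -0.56 in edgeR. Of the genes that metabolise skatole and other foreign compounds, 6 of 14 tested were higher and 8 lower, 0 passed even an unadjusted p under 0.05, and the median was -0.07. FMO1, a flavin monooxygenase, was at 25.6 to 216 CPM in high BT and at 11.6 to 84.9 CPM in medium BT, and ALDH2, a mitochondrial aldehyde dehydrogenase, at 15.6 to 31.4 and 22.7 to 32.7 CPM.

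Markers of the cell types of the testis did not separate the groups, with 0 DE in each list. The Leydig cell list summed to 2473 to 20032 CPM in high BT and to 3032 to 23584 CPM in medium BT, with 4 of its 7 tested genes higher, 3 lower and a median log2 fold change of 0.0064. In edgeR 1 of the 7 was higher and the median was -0.093. Of the germ cell markers, in limma, 4 of 7 spermatogonial, 7 of 12 spermatocyte, 7 of 9 round spermatid and 6 of 13 elongating spermatid genes were higher in high BT, and none was at an unadjusted p under 0.05. The elongating spermatid split was 2 of 13 in edgeR. Examples are UCHL1 of spermatogonia (log2 fold change 0.32), SYCP1 of the synaptonemal complex (-0.15, and -0.052 in edgeR) and CATSPER1 of the sperm calcium channel (0.13, and 0.073 in edgeR). PRM2, a protamine that packs sperm DNA, had the highest value of the elongating spermatid list (0.33), whose median was -0.010. GAPDHS of the same list was at -0.076 (-0.19 in edgeR). In Sertoli cells, which nurse the germ cells, 4 of 8 markers were higher, with a median log2 fold change of -0.022. The highest of them was CTSL. CTSL, a lysosomal protease that Sertoli cells secrete, was at 1.90 to 82.8 CPM in high BT and at 2.64 to 14.0 CPM in medium BT (log2 fold change 1.43 ± 0.65, SE, unadjusted p 0.0387). The peritubular myoid list had 3 of 6 higher, among them DES, the muscle intermediate filament desmin (0.36), also at an unadjusted p under 0.05. For macrophages 5 of 6 tested markers were higher, against 50.3% of all genes, with a median of 0.53, the furthest from 0 among the lists except for the liver markers. The highest value of the macrophage list was that of MARCO, 1.18 ± 0.82 (SE, unadjusted p 0.162 in limma), and 1.35 in edgeR. CD14, the monocyte co-receptor of endotoxin, was at 0.517 to 2.64 CPM in high BT and at 0.240 to 1.54 CPM in medium BT (log2 fold change 0.83 ± 0.37, SE, unadjusted p 0.0355, adjusted p 1.00 in limma). These levels of CD14 rest on 2 to 44 counts per library, and its log2 fold change was 0.56 in edgeR. The lists of lymphocytes (4 tested), endothelial cells (4), red blood cells (2), fibroblasts (5) and epididymis (2) held 0 genes at an unadjusted p under 0.05.

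In the major histocompatibility and interferon list 7 of 10 tested genes were higher in high BT, against 50.3% of all genes. At an unadjusted p under 0.05 there were 2 of the 10, both higher, beside 4.17% of all genes. The list had 0 DE and a median log2 fold change of 0.23. SLA-DQB1, a class II antigen-presenting chain that varies greatly between pigs, was at 11.8 to 43.0 CPM in high BT (median 27.2) and at 10.7 to 24.9 CPM in medium BT (median 14.8). Its log2 fold change was 0.74 ± 0.25 (SE, unadjusted p 0.00642, adjusted p 1.00 in limma) in testis and 0.68 (unadjusted p 0.0118, adjusted p 0.479 in limma) in the livers of the same boars. IRF9, which carries the interferon signal to the nucleus, had a log2 fold change of 0.53 ± 0.22 (SE). Immediate early and stress genes were higher in 10 of 15 and lower in 5, with a median of 0.19 and 0 at an unadjusted p under 0.05. DUSP1, an early phosphatase induced by stress, was at 21.7 to 74.8 CPM in high BT and at 21.3 to 30.6 CPM in medium BT (log2 fold change 0.42 ± 0.22, SE).

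3 lists were taken from the study's own results on these and the other testes, so counts over them are not independent evidence of any direction. Of the study's testis candidates 6 of 8 were tested and all 6 had higher levels in high BT, with a median log2 fold change of 0.15, 0 DE and 1, MAP3K2, at an unadjusted p under 0.05. Of its leading testis genes 7 of 17 were higher and 10 lower, with a median of -0.02. EXOC5, an exocyst subunit of vesicle docking, was the 1 gene of these at an unadjusted p under 0.05 (log2 fold change -0.30 ± 0.14, SE). Of its 3 co-expression hub genes tested, 2 were higher in limma and 0 in edgeR, with COPZ2, a coat protein of Golgi vesicles, at -0.20 in limma and -0.44 in edgeR. Among general cell functions, 12 of 27 ribosomal protein genes, 18 of 38 nuclear oxidative phosphorylation genes and 10 of 13 genes of the mitochondrial genome were higher in high BT, with 0 DE. Their medians were -0.013, -0.022 and 0.034. These splits moved with the weighting, since without quality weights 7 of 27, 11 of 38 and 1 of 13 were higher, with medians of -0.075, -0.076 and -0.084. NDUFS6, a complex I subunit, was the 1 of these at an unadjusted p under 0.05, at 13.5 to 24.6 CPM in high BT and at 12.4 to 18.1 CPM in medium BT (log2 fold change 0.34 ± 0.13, SE).

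**Figure D3:**
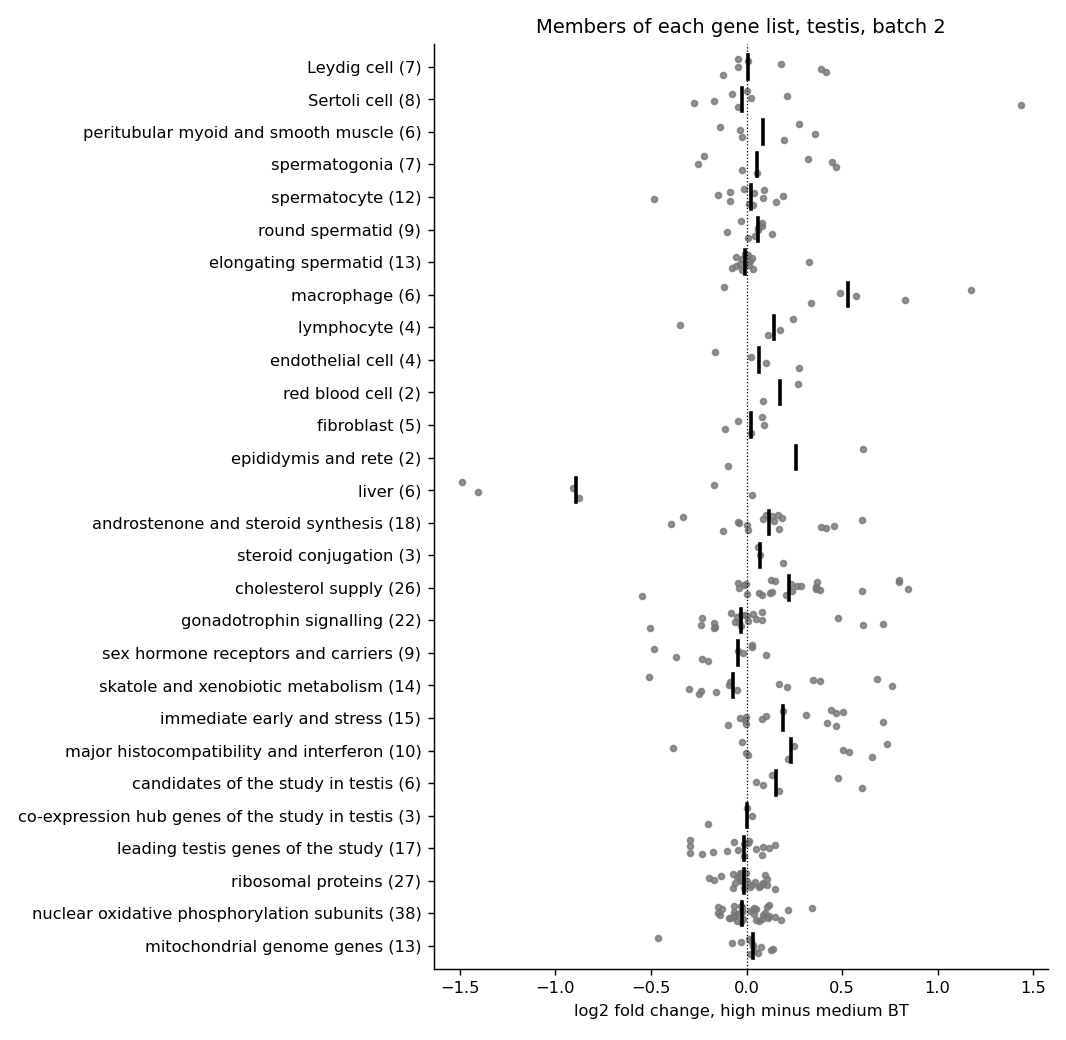
Log2 fold changes of high minus medium BT in testis (x axis) for the tested members of each gene list (y axis, number tested in parentheses), where points are genes and vertical bars are list medians. The cholesterol supply list has 21 of 26 points above 0 and a median of 0.22, the Leydig cell list is centred at 0.0064, and the liver list has the lowest median, -0.89.

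Most Leydig cell markers varied widely between boars within both merit groups. The SD within groups on the log2 scale had a median of 0.813 over the 7 Leydig cell markers, against 0.310 over the elongating spermatid and 0.287 over the spermatocyte markers and 0.332 over all genes. Wide spread was not particular to Leydig cells. The medians were 0.726 for 6 macrophage, 0.609 for 5 fibroblast, 0.569 for 4 endothelial, 1.17 for 2 red blood cell and 1.10 for 6 liver markers. Some of these markers had few reads, such as ALAS2 of red blood cells (mean 7.3 counts) and TTR of liver (mean 5.2 counts). Their SD includes counting error, which was not separated. Sertoli cell markers, at 0.339, lay near all genes. Over the 18 genes of steroid synthesis the median SD was 0.519, with a lowest value of 0.187 for CYB5R1, a cytochrome b5 reductase. Between the highest and the lowest of the 20 testes, CYP17A1 differed 14.5-fold, CYP11A1, the first enzyme of the pathway, 9.59-fold, and INSL3, a hormone of mature Leydig cells, 9.77-fold. SRD5A1, the reductase that completes androstenone and dihydrotestosterone, differed 14.6-fold and LHCGR 8.46-fold. HSD17B3, the enzyme that makes testosterone and also a Leydig cell marker, stood out in the list with a 1.81-fold range. The spermatocyte gene HORMAD1 (1.40-fold) and the Sertoli cell factor WT1 (1.59-fold) had the lowest SD of their lists. In the same lists SPO11 of spermatocytes differed 8.28-fold and CTSL of Sertoli cells 43.7-fold.

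These genes ranked the boars alike in both merit groups. Over the 20 boars, on the log2 CPM scale, CYP11A1 followed CYP17A1 with Pearson's r = 0.970 and Spearman's rho = 0.961 (two-sided permutation p 1e-05, the smallest that the permutations can give, adjusted p 2.86e-05 over 20 relations). With the 2 boars farthest from the median of CYP17A1 left out, r was 0.956. Within the 14 high BT boars r was 0.970, within the 6 medium BT boars it was 0.970 (exact permutation p 0.00278), and over the 16 first-run libraries it was 0.955. FDXR, a reductase in the electron supply of CYP11A1, followed CYP17A1 with r = 0.954. INSL3 followed CYP17A1 with 0.942, SRD5A1 with 0.923, CYB5A with 0.872, LHCGR with 0.776 and HSD17B7 with 0.726. Of the 20 relations computed, 12 had an adjusted permutation p under 0.05 for r, and all 12 were positive. Only members of the Leydig cell and steroid synthesis lists were related to CYP17A1. The share of all genes that follow it was not computed, so the relation cannot be called particular to these lists. HSD17B3 did not follow CYP17A1 detectably (r = -0.157, permutation p 0.508, adjusted p 0.597). The level of CYP17A1 was not related to the reads on genes (r = -0.025). The boars with the highest and lowest CYP17A1 were found in both groups, and which cells or which RNA per cell set these levels cannot be told apart in whole tissue. These relations were chosen after the values had been seen.

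**Figure D4:**
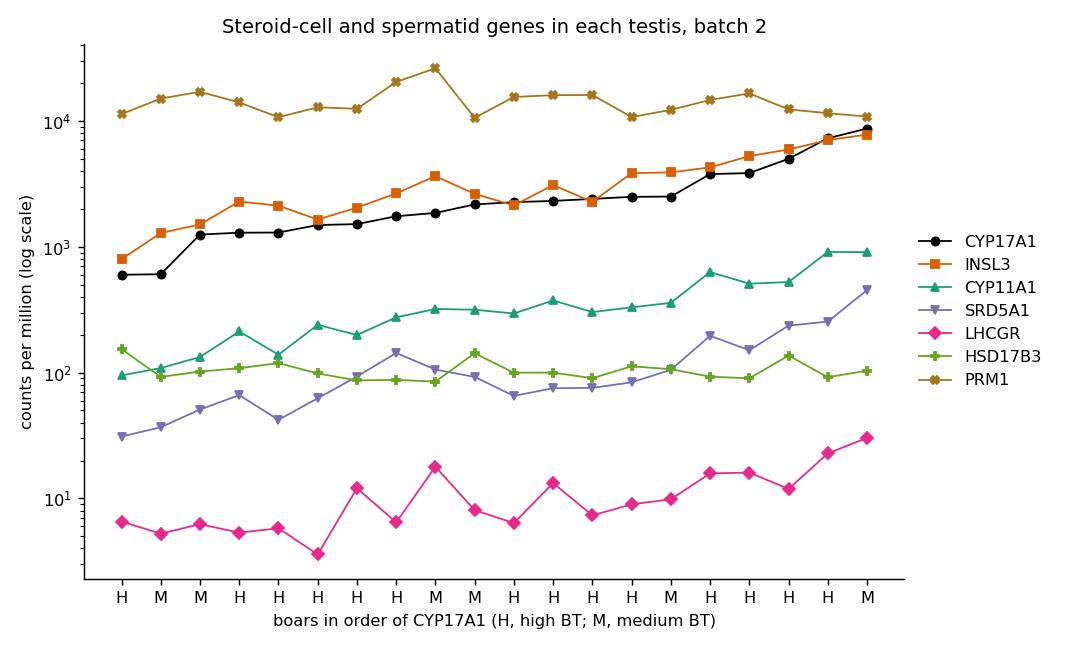
Levels (CPM, log axis) of 5 Leydig cell and steroid genes, of HSD17B3 and of the sperm protamine PRM1 in the 20 testes, ordered along the x axis by CYP17A1, with H for high and M for medium BT boars and lines only joining the points of a gene. CYP11A1, INSL3 and SRD5A1 climb with CYP17A1 (r from 0.923 to 0.970), HSD17B3 and PRM1 stay within ranges of 1.81-fold and 2.48-fold, and boars of both groups occur along the whole order.

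Some genes had many reads in some boars and almost none in others, again across merit groups. A value near 0 here means that almost no read was assigned to the gene model of the pig assembly used, and whether the transcript itself was missing was not tested. Of 7441 genes with a symbol and a mean of at least 50 counts, the 20 with the largest spread within groups were described, and 13 of them fell into 2 levels more than 1 log2 unit apart with at least 2 boars on each side. These genes were chosen for their spread, so their levels are a description with no test. SMPD3, a neutral sphingomyelinase, had the largest spread: 11 boars (8 high and 3 medium BT) were at 0.105 to 0.840 CPM and 9 boars (6 high and 3 medium BT) at 14.4 to 25.1 CPM. ANKFN1 split 10 boars at 11.5 to 22.2 CPM from 10 at 94.3 to 213 CPM. CDH17, a cadherin known from intestine, was at 22.7 to 39.1 CPM in 6 boars and lower in the other 14.

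For 3 of the 13 genes, the livers of the same boars divided in the same way without overlap. NDUFA6, an accessory subunit of complex I, was at 0 to 0.834 CPM in the testes of 7 boars (5 high and 2 medium BT) and at 6.35 to 18.3 CPM in those of 13. Its levels in liver were 0 to 0.406 CPM in the first 7 boars and 3.23 to 15.1 CPM in the other 13. SMDT1, a regulator of the mitochondrial calcium uniporter, was at 46.9 to 50.3 CPM in 2 testes (1 high and 1 medium BT) and at most at 1.32 CPM in 18, and in liver at 8.16 to 9.51 CPM in those 2 boars and at most at 0.309 CPM in the others. PPP1R11, an inhibitor of protein phosphatase 1, was at 0 to 0.315 CPM in 9 testes and at 5.03 to 17.8 CPM in 11. In the livers of those 9 boars PPP1R11 had 0 counts, which allows a level of up to 0.439 CPM (3 counts, counting error only), and in the livers of the other 11 it was at 0.102 to 2.32 CPM, 4 of them at 3 counts or less. The liver and testis of a boar are separate libraries from separate batches, and why the same boars stood apart in both was not tested.

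In 3 of the 13 genes 1 of the levels held boars of a single merit group. For SNAP91, a clathrin assembly protein, the lower level was made up of 3 high BT boars (0.585 to 0.841 CPM), and for UBD, a ubiquitin-like protein induced by interferon, of 2 medium BT boars (1.06 to 1.70 CPM). FAM135B was the gene whose upper level held high BT boars alone. It was at 16.9 to 26.1 CPM in 7 high BT testes and at 1.19 to 4.08 CPM in the other 7 high BT and all 6 medium BT testes. None of these 3 genes was DE in limma, with log2 fold changes of 1.78 for FAM135B, 1.98 for UBD and -0.58 for SNAP91. How often a level holds a single merit group among all ranked genes was not counted, so no link to merit is drawn.

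**Figure D5:**
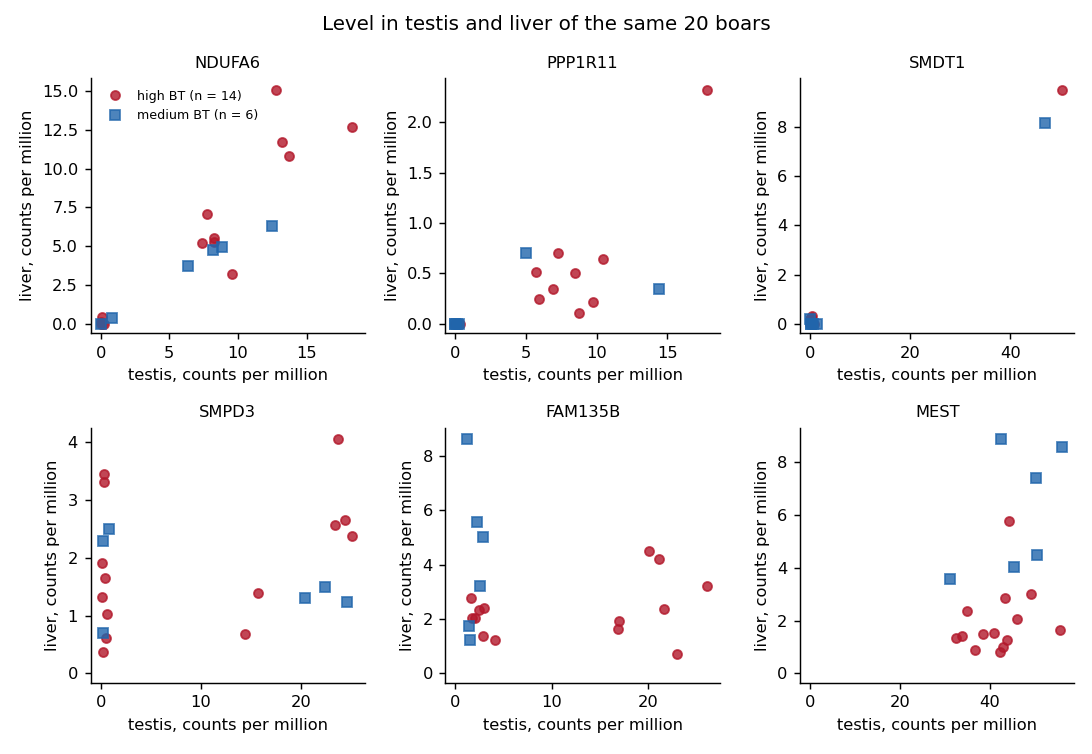
Level in testis (x axis) against level in liver (y axis) of the same 20 boars, in CPM on linear axes, for NDUFA6, PPP1R11, SMDT1, SMPD3, FAM135B and MEST, where circles are high BT and squares medium BT boars. For NDUFA6 the 7 boars near 0 in testis are also near 0 in liver, for SMPD3 the 2 levels of testis are mixed in liver, and for MEST 13 of 14 high BT boars lie below all medium BT boars in liver and are mixed with them in testis.

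In the livers of the same 20 boars, 1 of 12255 genes (0.00816%) was DE between high and medium BT. It was MEST, an imprinted gene that is expressed from the paternal copy in the mammals studied. MEST was at 0.815 to 5.78 CPM in the high BT livers (median 1.52) and at 3.57 to 8.90 CPM in the medium BT livers (median 5.95), with 13 of 14 high BT livers below every medium BT liver. Its log2 fold change in liver was -1.86 ± 0.30 (SE, adjusted p 0.0269 in limma), 3.64-fold higher in medium BT, on 8 to 84 counts per library. In the testes MEST was at 32.6 to 55.8 CPM in high BT and at 31.2 to 56.1 CPM in medium BT, with the groups mixed and a log2 fold change of -0.12 ± 0.11 (SE). The difference between the changes of the 2 tissues was 1.62 on the log2 scale, and MEST was the 1 of 11301 genes (0.00885%) for which it passed the test (limma with the boar as a block, adjusted p 0.0191, and 0.0318 without the block). The liver call was lost in edgeR (log2 fold change -1.64, adjusted p 0.185) and when any 1 of liver high BT replicates 5, 10, 11, 12, 13 and 14 or liver medium BT replicates 9 and 12 was left out (adjusted p in limma up to 0.708). Liver replicates are numbered apart from those of testis, and the test of the difference was not repeated with libraries left out.

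As background for the count of DE genes in batch 2, the testes of 7 medium and 7 low BT boars within batch 1, all stranded mRNA libraries of other boars, gave 0 DE genes of 15411 (0%) in limma, with 2290 (14.9%) at an unadjusted p under 0.05, and 0 in edgeR. When all 48 testes were fitted with merit alone, so that kits and batches differed between high and medium BT, 62 genes were called, 43 higher and 19 lower in high BT, and with the 34 stranded mRNA testes and a batch term 0 were called.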

How the data were processed

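RNA-Seq of testis from 14 high and 6 medium BT boars (batch 2 in the submitters' file labels) was analysed. Per the labels and the study's methods, reads were trimmed by the authors (cutadapt 1.8.1, then quality trimming in Trimmomatic 0.33) and aligned by STAR against the pig assembly 10.2 with Ensembl 79 genes, and the deposited values are raw counts per gene from HTSeq 0.6.0. Per the study's methods HTSeq ran with default parameters, which count by strand. Which strand the reads of the kit report was not checked here, so overlapping and antisense genes are uncertain. Of 25322 genes, 11804 had a symbol in the gene table used. HTSeq's 5 summary lines stayed out of all totals, and reads assigned to genes were 62.6% to 74.7% of the reads counted.

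Genes with a mean count above 5 over the 20 libraries were kept (15164, of which 9794 with a symbol). TMM factors, voom with sample quality weights and limma 3.58.1 (R 4.3.3) gave two-sided p-values, with Benjamini-Hochberg adjustment over all genes tested. Levels are TMM-scaled CPM, which are not per length, so levels were not compared between genes. Depth of 7200799 to 18045966 reads on genes puts 3 counts at 0.166 to 0.417 CPM. Library measures were compared by exact permutation tests over 38760 relabellings, and correlations by 100000 permutations. The livers were fitted alone, and with the testes in a model with the boar as a block. Same boars were known from the pig numbers in the labels.

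Named genes were DE genes, the 10 of lowest p in each direction and the 2 of lowest p in each list. TRPC7, ADD2, MEST and the genes of largest spread were added after their values were seen. The comparison and the gene lists were chosen with earlier results of these data known. Alternatives were edgeR 4.0.16, DESeq2 1.42.0, no TMM factors, no quality weights, other count minimums, each library or all second-run libraries left out, depth as a covariate, and all stranded or all testis libraries. The fits were tested on simulated data. Total RNA and low BT libraries enter only where named.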

Additional observations from a re-analysis of the deposited data

Results flagged for a closer look

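Over 80 sets of values of the 6 medium BT testes (the named genes and 4 library measures), 9 had a highest library far from the other 5 by Dixon's criterion. The criterion's rate by chance, about 1 in 20, holds for independent sets of normally distributed values. These values were not log-transformed and some of the genes follow each other, so 9 of 80 cannot be set against that rate. Medium BT replicate 9 was the far library for 5 genes: CYP17A1 at 8711 CPM (nearest 2507), CYP11A1 at 907 CPM (nearest 358), PAPSS2, which makes the sulphate donor, at 377 CPM (nearest 138), KIT, a receptor of spermatogonia and Leydig cells, at 34.2 CPM (nearest 15.0), and ENSSSCG00000030371 at 23.6 CPM (nearest 13.3). Medium BT replicate 12 was the far library for 3 genes: GAPDHS, the glycolytic enzyme of sperm, at 955 CPM (nearest 559), RPL10L, a ribosomal protein of germ cells, at 255 CPM (nearest 188), and MARCO, a macrophage scavenger receptor, at 8.41 CPM (nearest 1.72). Medium BT replicate 8 was far for ALAS2, the haem enzyme of red cells, at 0.960 CPM (nearest 0.463). High BT, with 14 libraries, was not examined in this way.

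The change of MEST between high and medium BT differed between testis and liver by 1.62 on the log2 scale (limma with the boar as a block, adjusted p 0.0191).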

How the results depend on the processing

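The number of DE testis genes, 1, was 1 without TMM factors, 4 in DESeq2 and 0 in edgeR, without quality weights, without a minimum count, with at least 10 counts in every library, without the second-run libraries, with log2 reads on genes as a covariate, and with all stranded mRNA testes and a batch term (0 also without medium BT replicate 6 of batch 1, whose profile stood apart). It was 62 with all 48 testes and merit alone, where kits and batches differ between the groups, and 66 without the 2 libraries that stood apart, medium BT replicate 6 and low BT replicate 16 (omissions chosen after seeing the data). Leaving out each library in turn gave 0 to 3, with 3 without medium BT replicate 12 and 2 without high BT replicates 2 or 12 or medium BT replicate 11. The cause of these changes was not tested. The liver count, 1, was 0 in edgeR, 2 without quality weights and 1 without TMM factors. The batch 1 count was 0 in each alternative, also without medium BT replicate 6. Replicate numbers of high and medium BT mark different boars, so testis libraries were not paired. The pairing of testis and liver by boar moved no call, since the fit with no replicate block also gave 1 gene, MEST.

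For 78 genes followed, 2365 of 2473 alternative values kept their direction and side of the threshold, 23 were weaker (all of ENSSSCG00000011035), 26 were stronger and 59 had the other sign, in genes far from the threshold. With all 48 testes, and without the 2 that stood apart, log2 fold changes of the other sign were 0.13 and 0.12 for GAPDHS, 0.047 and 0.045 for AQP9, 0.046 and 0.052 for NKG7, 0.25 and 0.25 for CATSPER3, 0.021 and 0.023 for MEST, -0.15 and -0.14 for ALAS2, -0.32 and -0.31 for HBB, and -0.075 and -0.069 for PAPSS2, with -0.0011 for DCN with all 48. Without quality weights, in edgeR and in DESeq2 they were -0.084, -0.073 and -0.072 for RAMP2, -0.030, -0.055 and -0.056 for COX3, and -0.014, -0.022 and -0.021 for PAPSS2. Without quality weights HBB was at -0.084, without a minimum count RAMP2 was at -0.0011, and with the depth covariate RAMP2 was at -0.020. CYP17A1 was at -0.096 in edgeR and -0.091 in DESeq2. Leaving out 1 library gave -0.22 to 0.20 for RAMP2, -0.47 to 0.069 for TEK, -0.029 to 0.19 for DCN, -0.32 to 0.054 for COL3A1, -0.073 to 0.79 for CYP11A1, -0.19 to 0.81 for CYP17A1, -0.060 to 0.32 for COX3, -0.19 to 0.47 for HBB, -0.069 to 0.33 for ALAS2, -0.17 to 0.0060 for CATSPER3, -0.088 to 0.16 for SLC35B2, -0.13 to 0.51 for PAPSS2 and -0.11 to 0.023 for GAPDHS.

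With 14 against 6 boars and a median SE of 0.157, small differences in single genes were not detectable at this depth and number. Genes at a few counts per library, such as KCNN3, ADAMTS5 and LNP1, carry the largest errors. The merit of the sire stands for the boars, and no measured androstenone or skatole of these boars was used here.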
